A study of Mus musculus with 6 samples.

Results

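The mRNAs of 10 mouse genes of endotoxin sensing, interleukin-1 (IL-1) reception and NF-κB feedback were followed in liver after silencing of Rnf10. They were Lbp, Cd14, Tlr4 and Tlr2, which serve the sensing of bacterial products, Il1r1 and Il1rap, the chains of the IL-1 receptor, and Irak3, Nfkbia, Nfkbiz and Tnfaip3, which restrain or tune the signal. The 10 genes are a small set of the 55487 gene identifiers counted, and all 10 were among the 14046 genes with enough counts to be tested. They were chosen by their function and by results measured in these same mice, so their differences are given as a description without p-values.

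Liver RNA was sequenced from 6 wild-type male C57BL/6J mice fed a chow diet, and the livers were taken at 17 weeks of age. The 3 control mice had received GalNAc-siNC, a control siRNA, and the other 3 had received GalNAc-siRnf10, an siRNA against the ubiquitin ligase gene Rnf10, both under the skin. N-acetylgalactosamine (GalNAc) carries an siRNA to hepatocytes through the asialoglycoprotein receptor. The labels name neither the dose nor the days between injection and sampling, and each library came from 1 mouse.

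Lipopolysaccharide (LPS), the endotoxin of gram-negative bacteria, is bound in blood by LPS-binding protein, passed to CD14 and recognised by TLR4 together with MD-2, the product of Ly96. TLR4 and the IL-1 receptor share a cytoplasmic domain and recruit the same adaptor, MyD88, and the same IRAK kinases, which lead through TRAF6 and the IκB kinase to release of NF-κB. NF-κB in turn induces its own inhibitors, so the pathway is closed by feedback. In liver, hepatocytes secrete LPS-binding protein, while Kupffer cells, the resident macrophages, are known for CD14 and TLR4.

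The promoters of the feedback and receptor genes are shown because NF-κB is known to act on its targets through a 10-base κB motif. The windows were taken from RefSeq (GRCm38.p6) and ran from 250 bases before to 50 bases after a transcription start. They were at hand for 6 of the 10 genes, Tlr2, Il1r1, Il1rap, Irak3, Nfkbia and Tnfaip3. The κB consensus, searched on both strands with overlapping matches kept, occurred in 2779 of all 32851 windows (8.46%), and a stricter form occurred in 4.51% of them. It was found in both forms for 4 genes, Nfkbia, Tnfaip3, Tlr2 and Il1r1, and not in the windows of Il1rap and Irak3. Counted by window, the consensus occurred in 4 of the 9 windows of these genes, and another window of Tnfaip3 held no match. In the sequences, read 5′ to 3′ on the gene's strand, capitals mark the motif. The stretches lie at chr12:55492648-55492897 (minus strand) for Nfkbia, chr10:19015411-19015660 (minus) for Tnfaip3, chr3:83841607-83841858 (minus) for Tlr2 and chr1:40266336-40266585 (plus) for Il1r1.
Nfkbia promoter: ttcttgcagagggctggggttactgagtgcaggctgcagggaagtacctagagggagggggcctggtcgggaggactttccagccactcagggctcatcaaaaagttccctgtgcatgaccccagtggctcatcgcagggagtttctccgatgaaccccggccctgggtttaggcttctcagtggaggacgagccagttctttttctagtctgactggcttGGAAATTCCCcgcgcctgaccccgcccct
Tnfaip3 promoter: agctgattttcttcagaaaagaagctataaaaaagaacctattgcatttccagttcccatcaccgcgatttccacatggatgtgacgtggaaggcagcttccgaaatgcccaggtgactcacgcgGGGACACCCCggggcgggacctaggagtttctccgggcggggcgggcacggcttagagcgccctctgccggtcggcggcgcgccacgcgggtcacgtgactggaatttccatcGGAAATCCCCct
Tlr2 promoter: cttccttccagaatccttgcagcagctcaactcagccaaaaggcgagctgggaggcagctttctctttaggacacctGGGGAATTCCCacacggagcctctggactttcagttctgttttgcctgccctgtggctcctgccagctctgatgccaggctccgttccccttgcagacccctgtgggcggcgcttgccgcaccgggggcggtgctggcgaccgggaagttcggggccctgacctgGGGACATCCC
Il1r1 promoter: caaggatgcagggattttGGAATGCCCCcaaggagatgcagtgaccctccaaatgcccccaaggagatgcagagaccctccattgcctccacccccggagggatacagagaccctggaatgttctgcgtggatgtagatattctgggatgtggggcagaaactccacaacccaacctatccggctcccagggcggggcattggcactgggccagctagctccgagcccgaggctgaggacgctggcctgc

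The match of Nfkbia began 29 bases before the start, and those of Tnfaip3 began 125 and 12 bases before it. Tlr2 held 3 matches between 173 and 8 bases before the start, of which the first ones overlap each other and the last one crosses the start. The match of Il1r1, in 1 of its 2 windows, began 232 bases before the start. These are matches of letters only, and binding was not measured.

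An siRNA can also lower mRNAs that pair with its seed, positions 2 to 8 of the guide strand. With the guide read in its printed order, the matching site is AACCTGA, and it occurred in an annotated 3′ UTR of Il1r1 and of Irak3 among the 10 genes. Of the tested genes, 12320 had such a UTR and 1832 of these held the site (14.9%), or 12.6% when, in a setting added after seeing the data, only protein-coding transcripts were counted. Both sites are shown on the gene's strand with the seed match in capitals, at chr1:40315367-40315395 (plus) for Il1r1 and chr10:120142474-120142502 (minus) for Irak3 (GRCm38).
Il1r1 3′ UTR site: ctcctggatccAACCTGAcaggagatgac
Irak3 3′ UTR site: cctctcagtcaAACCTGAgaagctaaact

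The strand labels place the 3′ end first, so the end labelled 5′ is printed last. The study's text, however, places GalNAc at the 3′ end of the sense strand, and that strand is printed with GalNAc last. By that text the strands are printed 5′ to 3′, and AACCTGA is the site. Read instead from the end labelled 5′, the site becomes AATCCCG. That site occurred in 2.27% of the same genes and in none of the 10. Whether the seed match of Il1r1 and Irak3 bears on their levels was not tested.

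The libraries held between 26854377 and 33058645 counts. Rnf10 itself had normalized counts of 3869, 4536 and 4040 in the GalNAc-siNC mice and 1738, 1821 and 1793 in the GalNAc-siRnf10 mice, 57.0% lower (log2 fold change -1.22, SE 0.071; edgeR quasi-likelihood test with Benjamini-Hochberg adjustment, adjusted p = 3.29e-09). Without GalNAc-siNC mouse 1 it was -1.27. GalNAc-siNC mouse 1 stood apart from its group. Its counts differed from those of the other GalNAc-siNC mice by a chi-square per gene of 30.6 and 29.8, against 10.4 between those mice and 4.71 to 5.40 among the GalNAc-siRnf10 mice. Values without it are therefore given beside the results for named genes. Hepatocyte markers were abundant in every mouse, and 4 of 7 (Alb, Ttr, Cps1 and Cyp2e1) rose, with and without that mouse.

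In the control livers the 10 genes covered a wide span of levels. As CPM, counts scaled to a common library size, per kilobase of gene model, Lbp was highest at 51.7 ± 0.547 (SD, n = 3), above 94.6% of all tested genes. Nfkbia at 15.3 ± 1.99 and Il1rap at 14.4 ± 0.594 came next and overlapped each other, followed by Il1r1 at 9.18 ± 0.821. The sensing receptors were far lower. Tlr2 at 1.32 ± 0.266 overlapped Nfkbiz at 1.30 ± 0.178, and Cd14 at 0.839 ± 0.191 overlapped Irak3 at 0.444 ± 0.168. Tnfaip3 at 0.251 ± 0.0146 overlapped Tlr4 at 0.181 ± 0.0612, the lowest of the 10, which was above 8.32% of tested genes.

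**Figure D1:**
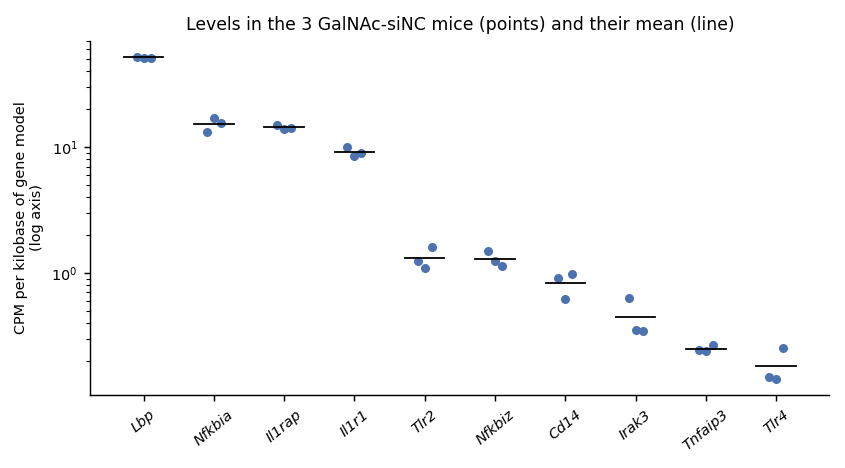
Level of each of the 10 genes in the 3 GalNAc-siNC mice, as CPM per kilobase of gene model on a log axis, with points for mice and a line for their mean. Lbp lay at 51.7 and Tlr4 at 0.181, and neighbours such as Nfkbia and Il1rap overlapped.

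Between the treatments, 5 of the 10 genes passed an adjusted p of 0.05 (edgeR) and are referred to as called. Lbp, Tlr2, Irak3 and Il1r1 were lower in the GalNAc-siRnf10 mice and Nfkbia was higher. Among all genes tested, 14.0% were called, 7.28% as lower and 6.71% as higher. The values of the groups did not overlap for 6 of the 10 genes, and for 32.8% of all genes tested. Because the 10 were selected on this contrast, these shares stand beside the counts only. The median log2 fold change of the 10 was 0.13, against 0.0022 for all genes tested, and 4 of the 10 were negative. In bulk liver, fewer cells of a type and less RNA per cell cannot be told apart.

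**Figure D2:**
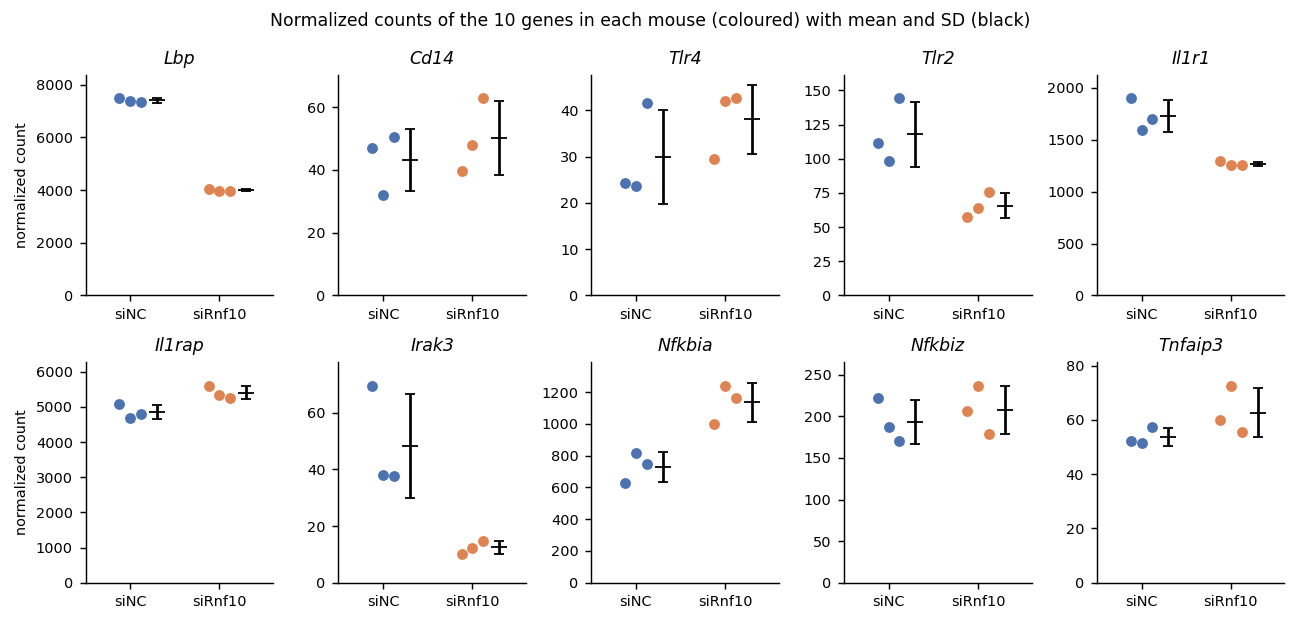
Normalized counts of the 10 genes in each mouse, GalNAc-siNC in blue and GalNAc-siRnf10 in orange, with the group mean and SD in black (n = 3 mice each) and axes starting at 0. Lbp lay near 7404 in GalNAc-siNC mice and near 3991 in GalNAc-siRnf10 mice with little scatter, whereas the mice of both groups overlapped for Cd14, Tlr4, Nfkbiz and Tnfaip3.

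Of the genes that serve endotoxin sensing, the secreted carrier and TLR2 were lower and the membrane partners of LPS were not called. Lbp had normalized counts of 7490, 7385 and 7337 in the GalNAc-siNC mice and 4032, 3984 and 3956 in the GalNAc-siRnf10 mice. The groups were far apart and the mice within each nearly equal. The log2 fold change was -0.89 (SE 0.056), or 46.1% lower, and -0.88 without GalNAc-siNC mouse 1. Lbp was called under all 15 settings and left-out mice fitted.

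Cd14, the co-receptor that takes LPS from its carrier, had 47.0, 31.97 and 50.4 normalized counts in the GalNAc-siNC mice and 39.6, 47.8 and 62.8 in the GalNAc-siRnf10 mice. The groups overlapped, and the log2 fold change was 0.21 (SE 0.27), or 0.28 without GalNAc-siNC mouse 1. Its 95% interval ran from -0.32 to 0.74. Tlr4, the signalling receptor for LPS, had 24.4, 23.7 and 41.5 against 29.4, 42.1 and 42.6. Here too the groups overlapped, with a log2 fold change of 0.35 (SE 0.32, 95% interval -0.27 to 0.98), and 0.22 without that mouse. At these low counts the intervals are wide, and differences of either sign within them are compatible with the values.

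Tlr2, the receptor for bacterial lipoproteins, had 111, 98.0 and 144 normalized counts in the GalNAc-siNC mice and 57.6, 64.1 and 75.6 in the GalNAc-siRnf10 mice. Every GalNAc-siNC mouse lay above every GalNAc-siRnf10 mouse, although the controls were scattered. The log2 fold change was -0.84 (SE 0.20), and -0.88 without GalNAc-siNC mouse 1. The call was lost without GalNAc-siNC mouse 3, at -0.67, and without GalNAc-siRnf10 mouse 1, at -0.76. Within each mouse, the level of Tlr4 per kilobase was 0.119 to 0.156 of that of Tlr2 in controls and 0.277 to 0.356 in GalNAc-siRnf10 mice. The ratio of Lbp to Cd14 per kilobase was 52.2 to 82.8 in controls and 22.6 to 36.5 in GalNAc-siRnf10 mice. The groups overlapped for Cd14 to Tlr4, at 3.90 to 6.19 in controls and 3.65 to 4.73 in GalNAc-siRnf10 mice. They also overlapped for Ly96 to Tlr4, at 13.2 to 21.1 and 8.84 to 18.4.

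Of the chains of the IL-1 receptor, Il1r1 was lower and called, and Il1rap was not called. Il1r1, which binds IL-1, had 1901, 1596 and 1704 normalized counts in the GalNAc-siNC mice and 1292, 1254 and 1260 in the GalNAc-siRnf10 mice. All controls were higher, with a log2 fold change of -0.45 (SE 0.077), or 26.8% lower, and -0.38 without GalNAc-siNC mouse 1. It was called in all 15 fits. Il1rap, the accessory chain needed for signalling, had 5082, 4697 and 4794 against 5607, 5337 and 5252.

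For Il1rap every GalNAc-siRnf10 mouse was above every control, but the difference was small (log2 fold change 0.15, SE 0.060) and the gene was not called. It was called without GalNAc-siNC mouse 1, at 0.18, with limma voom, at 0.17, and with a correction for GC content and length, at 0.15. Per kilobase, Il1rap stood at 1.497 to 1.65 times Il1r1 within control mice and at 2.34 to 2.43 times within GalNAc-siRnf10 mice. Gm20319, on the opposite strand, shares 552 exon bases with Il1rap and had 884 to 1115 counts. Since the strand setting of the counting is not given in the sources used here, the value of Il1rap is uncertain.

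Irak3, which encodes IRAK-M, an inhibitor of the IRAK relay known from macrophages, had 69.6, 38.2 and 37.5 normalized counts in the GalNAc-siNC mice and 10.2, 12.4 and 14.9 in the GalNAc-siRnf10 mice. The groups were well apart, and GalNAc-siNC mouse 1 was the highest by a wide margin. The log2 fold change was -1.95 (SE 0.37), the greatest in size of the 10, and -1.59 without that mouse. Irak3 was called in the 14 fits that kept it. A filter of at least 10 counts in every mouse removed it, as GalNAc-siRnf10 mouse 1 had 9 counts. Its exons share 192 bases with Tmbim4 on the opposite strand, a gene with 1100 to 1510 counts, so its value is uncertain.

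Of Nfkbia, Nfkbiz and Tnfaip3, which act on NF-κB or its activation, Nfkbia was called. It encodes IκBα, which holds NF-κB in the cytoplasm and is itself an NF-κB target. It had 628, 815 and 748 normalized counts in the GalNAc-siNC mice and 999, 1241 and 1165 in the GalNAc-siRnf10 mice. All GalNAc-siRnf10 mice were higher, with a log2 fold change of 0.64 (SE 0.10), or 55.5% higher, and 0.54 without GalNAc-siNC mouse 1. Nfkbia was called in all 15 fits.

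Nfkbiz, which encodes the nuclear regulator IκBζ, had 222, 187 and 170 normalized counts in controls and 207, 237 and 179 in GalNAc-siRnf10 mice. The groups overlapped (log2 fold change 0.11, SE 0.15), with 0.22 without GalNAc-siNC mouse 1 and -0.0032 without GalNAc-siRnf10 mouse 2. Tnfaip3, which encodes the ubiquitin-editing inhibitor A20, had 52.2, 51.6 and 57.3 against 59.9, 72.7 and 55.4. It overlapped as well, with a log2 fold change of 0.23 (SE 0.22) and 0.20 without GalNAc-siNC mouse 1. Of the 4 genes with the κB motif shown above, Nfkbia was called higher, Tlr2 and Il1r1 were called lower, and Tnfaip3 was not called.

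**Figure D3:**
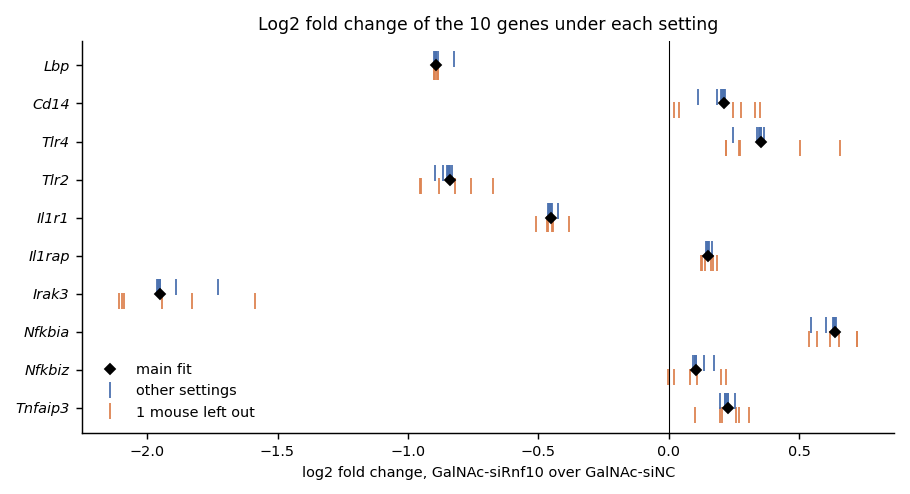
Log2 fold change of each gene (GalNAc-siRnf10 over GalNAc-siNC), with the reported value as a diamond, other settings as blue ticks and fits with 1 mouse left out as orange ticks. Irak3 ranged from -2.11 to -1.59 and Lbp from -0.90 to -0.82, while Nfkbiz reached -0.0032.

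The rest of the pathway was read in 7 lists of 104 other genes, of which 85 were tested. In all, 11 (12.9%) fell and 3 (3.53%) rose (edgeR, adjusted p under 0.05), and the median log2 fold change was -0.085. Of all genes tested 7.28% fell and 6.71% rose, which is the background for this and the counts by list that follow. A negative log2 fold change was found for 56 of the 85 (65.9%), and for 49.7% of all genes tested. Without GalNAc-siNC mouse 1 the counts were 18 and 4, and the 14 genes called with all mice were called there too. More genes were called outside the lists as well in that fit, with 1469 lower and 1395 higher of 14343 tested. The lists were drawn up with earlier results of these mice known, and nothing is called particular to them.

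Of the 14 tested endotoxin and Toll-like receptor genes, 3 fell and none rose. Tlr3, an endosomal sensor of double-stranded RNA, fell from 249.6 ± 58.1 to 158.1 ± 16.2 normalized counts (SD, n = 3; log2 fold change -0.66, SE 0.165; edgeR adjusted p = 0.0116). Tlr12 had a log2 fold change of -0.43 (SE 0.105, edgeR adjusted p = 0.0107). Hsp90b1, the chaperone gp96 on which Toll-like receptors depend for folding, had -0.28 (SE 0.0635, edgeR adjusted p = 0.00584). The call of Tlr3 was lost without GalNAc-siRnf10 mouse 2 or 3, that of Tlr12 without mouse 1 or 3, and that of Hsp90b1 without mouse 2. Leaving out GalNAc-siNC mouse 1, the log2 fold changes were -0.48 for Tlr3, -0.49 for Tlr12 and -0.20 for Hsp90b1. Ly96, the partner of TLR4, was not called (log2 fold change -0.016, SE 0.221, and -0.21 without that mouse).

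All 11 tested adaptor and relay genes had a negative log2 fold change, as did 49.7% of all genes tested, and 3 of the 11 (27.3%) fell, against 7.28%. Irak2, a kinase of the relay, fell from 740.2 ± 11.4 to 522.1 ± 10.8 normalized counts (log2 fold change -0.50, SE 0.0859; edgeR adjusted p = 6.25e-04). Irak1 had -0.29 (SE 0.0716, edgeR adjusted p = 0.01004) and Myd88, the shared adaptor, -0.43 (SE 0.108, edgeR adjusted p = 0.0132). Irak2 was called in all 15 fits, whereas Irak1 lost its call without GalNAc-siRnf10 mouse 1 or 3 and Myd88 without mouse 2 or 3. The values without GalNAc-siNC mouse 1 were -0.49 for Irak2, -0.29 for Irak1 and -0.36 for Myd88. Myd88 shares 290 exon bases with Acaa1a on the opposite strand, which had 5150 to 7231 counts, so its value is uncertain. Irak4 at -0.29 and Traf6 at -0.23 were not called, and stood at -0.27 and -0.13 without GalNAc-siNC mouse 1. The value of Irak4 is uncertain too, as it shares 395 exon bases with Twf1 on the opposite strand, which had 1306 to 1674 counts.

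Among 7 tested genes of IL-1 ligands and other receptors, only Il1rn was called. Il1rn, the receptor antagonist, fell from 98.7 ± 19.6 to 54.6 ± 13.7 normalized counts (log2 fold change -0.86, SE 0.229; edgeR adjusted p = 0.0180), and the call was lost without GalNAc-siNC mouse 3 or GalNAc-siRnf10 mouse 1 or 2. Without GalNAc-siNC mouse 1 it was -0.90. Il1b at -0.38 (SE 0.323) and Sigirr at -0.062 (SE 0.107) were not called, and were -0.25 and -0.14 without that mouse. Il1r2, the decoy receptor, had at most 4 counts in any mouse and was not tested.

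Of 17 tested genes of the TAK1, IκB kinase and linear ubiquitin complexes, 2 fell. They were Ikbke, a kinase related to the IκB kinases (log2 fold change -0.49, SE 0.110; edgeR adjusted p = 0.00593), and Rnf31, the linear ubiquitin ligase HOIP (-0.49, SE 0.116; edgeR adjusted p = 0.00788). Rnf31 shares 123 exon bases with Irf9 on the same strand, which had 926 to 1467 counts, so its value is uncertain. The calls of Ikbke and Rnf31 were lost without GalNAc-siRnf10 mouse 1. Ikbke was at -0.49 and Rnf31 at -0.50 without GalNAc-siNC mouse 1. None of the 5 NF-κB subunit genes was called by edgeR, DESeq2 or limma voom, and 1 had an unadjusted p under 0.05 in edgeR. Rela at -0.20 was called only without GalNAc-siNC mouse 1, at -0.26. Nfkb1 had -0.043, and -0.050 without that mouse.

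Of 18 tested other inhibitors, Bcl3, an atypical IκB, fell (log2 fold change -0.59, SE 0.130; edgeR adjusted p = 0.00800), and its call was lost without GalNAc-siRnf10 mouse 1. Without GalNAc-siNC mouse 1 it was -0.73. Nfkbib at -0.26, Tnip1 at -0.33 and Cyld at 0.0055 were not called. Without that mouse Nfkbib at -0.33 and Tnip1 at -0.38 were called, and Cyld at 0.047 was not. Of 22 NF-κB-induced genes listed, 9 had at most 18 counts in any mouse and were not tested, cytokine and chemokine genes among them. Among 13 tested NF-κB-induced genes, Cxcl1, a neutrophil chemokine, fell from 185 ± 17.8 to 116 ± 4.96 normalized counts (log2 fold change -0.68, SE 0.147; edgeR adjusted p = 0.00430). Vcam1, an adhesion molecule, rose from 174 ± 7.55 to 269 ± 25.4 (0.63, SE 0.128; edgeR adjusted p = 0.00283). Sod2, the mitochondrial superoxide dismutase, rose by 0.33 (SE 0.0598, edgeR adjusted p = 0.00103), and Cflar, an inhibitor of caspase-8, by 0.20 (SE 0.0645, edgeR adjusted p = 0.0460). Cxcl1, Vcam1 and Sod2 were called in all 15 fits and Cflar in 5 of them. The values without GalNAc-siNC mouse 1 were -0.70 for Cxcl1, 0.62 for Vcam1, 0.30 for Sod2 and 0.22 for Cflar.

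**Figure D4:**
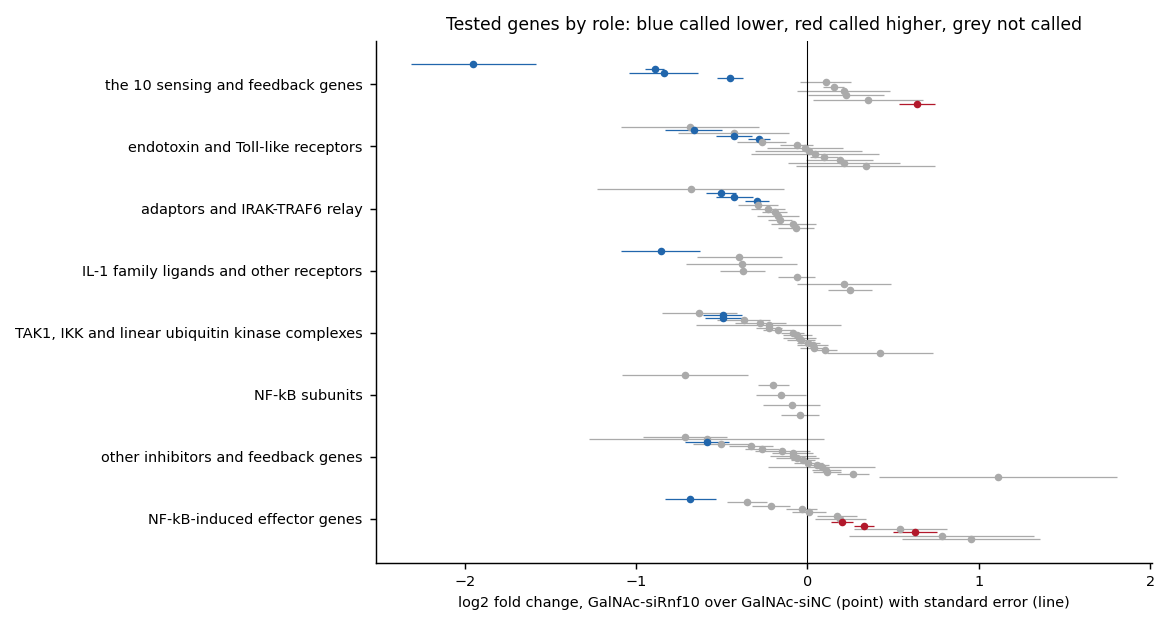
Log2 fold change with standard error (GalNAc-siRnf10 over GalNAc-siNC) of the 10 genes and of the 85 tested pathway genes by role, blue for genes called lower, red for higher and grey for not called. All 11 adaptor and relay genes lie left of 0, and the 3 pathway genes called higher are NF-κB-induced effectors.

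Markers of the cells known for these genes were read beside them. Of 12 Kupffer cell and macrophage markers, 0 were called by edgeR, DESeq2 or limma voom, with 2 at an unadjusted p under 0.05 in edgeR. When GalNAc-siNC mouse 1 was left out, edgeR called 1 of them lower, Cd5l. Their summed level was 277 to 335 CPM in controls and 305 to 324 in GalNAc-siRnf10 mice. Of 9 monocyte and neutrophil markers only 4 had enough counts, the others reaching at most 22 in any mouse, and 1, S100a9, fell (log2 fold change -1.43, SE 0.378; edgeR adjusted p = 0.0171), with -1.71 without GalNAc-siNC mouse 1. Their sum was 4.84 to 6.09 against 3.05 to 3.32 CPM, without overlap. Of 9 sinusoidal endothelial markers, Clec4g and Lyve1 rose by 0.52 and 0.55 on the log2 scale, and the sum was 204 to 230.1 against 225 to 236. Dpp4 made up 54.3% of that sum in controls. The sum of the others was 95.5 to 98.9 against 104.7 to 109.6, without overlap. Without GalNAc-siNC mouse 1 Clec4g and Lyve1 were at 0.48 and 0.52, and Lyve1 was no longer called. Dpp4 and Fcgr2b were then called higher and Stab2 was called lower (-0.26 with all mice).

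Of 9 stellate cell markers 2 rose, Reln and Dcn, each by 0.36 on the log2 scale (0.37 and 0.39 without GalNAc-siNC mouse 1). The other 7 were not called, 5 of the 9 had a negative log2 fold change, and the list median was -0.10. The sum was 131 to 138 CPM against 150 to 153, and without Dcn, its most abundant gene, 84.3 to 86.8 against 85.9 to 91.1. Of 6 tested cholangiocyte markers, Spp1 fell (log2 fold change -0.90, also without GalNAc-siNC mouse 1, where Sox9 was called lower as well). The sum was 69.1 to 70.5 CPM against 38.3 to 39.2, but Spp1 made up 88.8% of it in controls. The sum of the others was 6.78 to 9.04 against 5.37 to 6.09. None of 4 tested lymphocyte markers was called by edgeR, DESeq2 or limma voom, and 0 had an unadjusted p under 0.05 in edgeR, with sums of 6.16 to 6.81 against 5.49 to 6.45. The most abundant gene made up 63.3% of the lymphocyte sum in controls, and the others summed to 2.05 to 2.80 against 2.29 to 2.90. A further 9 lymphocyte markers, with at most 10 counts in any mouse, were not tested. The part of these cell types in the values of Tlr2, Irak3, Il1r1 and the other genes was not tested.

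In the GRCm38 assembly the 10 genes lie on 8 chromosomes, and the spans and gene model lengths of the deposited table equal those of GENCODE M21. Lbp spans chr2:158306493-158332852, Tlr2 chr3:83836272-83841767, Tlr4 chr4:66827584-66930284 and Cd14 chr18:36725067-36726798. Il1r1 spans chr1:40225080-40317257 and Il1rap chr16:26581704-26730117. Irak3 spans chr10:120141648-120202130 and Tnfaip3 chr10:19000910-19015657, while Nfkbia spans chr12:55489410-55492647 and Nfkbiz chr16:55811375-55838899.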

How the data were processed

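Gene counts of liver RNA were deposited by the authors for 6 libraries, 1 per mouse, with gene model lengths. Per the labels and the study's methods, poly(A) RNA was made into stranded libraries and reads were aligned with HISAT2 to GRCm38/mm10. The counting tool, annotation release and strand setting are not given in the sources used here. The authors used DESeq2 for a comparison whose results were not used. Protein identity among the 10 genes, though planned, was not analysed here.

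The 55487 identifiers were filtered by expression (filterByExpr), scaled by TMM and tested with edgeR's quasi-likelihood test (edgeR 4.0.16, R 4.3.3), with Benjamini-Hochberg adjustment over 14046 genes. A gene was called at an adjusted p under 0.05. Normalized counts are TMM-scaled counts, and levels between genes are CPM per kilobase. Only the edgeR, DESeq2 and limma voom fits were tested on simulated counts, with known changes and a single dispersion for all genes. No deviant mouse was simulated, and the other steps were not tested in this way. The 10 genes and all lists were chosen with earlier results of these data known. Named were the 10 genes, called pathway genes averaging 50 or more normalized counts (at most 5 per list), 14 further pathway genes whether called or not, and Rnf10. Marker genes are named where called. The alternatives were other scalings and filters, DESeq2 1.42.0, limma 3.58.1 voom, the replicate number as a block, a correction for GC content and length, and leaving out each mouse. Chi-square values, floors and intervals cover counting error or the spread of these mice only.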

Additional observations from a re-analysis of the deposited data

How the results depend on the processing

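Across 14 alternatives to each log2 fold change, 444 kept direction and side of the threshold, 27 lost and 7 gained a call, and 11 changed sign. The genes that changed sign were not called in any fit. With 1 mouse left out, Nfkbiz ranged from -0.0032 to 0.22, Ly96 from -0.21 to 0.13, Nfkb1 from -0.21 to 0.036 and Cyld from -0.040 to 0.047. Sigirr was 0.019 with the GC and length correction, and Cyld was -0.0051 with upper-quartile scaling and -8.04e-05 with no filter. The cause was not tested.

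Of the 10 genes, 2 were called higher with limma voom, with the GC and length correction and without GalNAc-siNC mouse 1 (1 to 2 over the left-out mice). Pathway genes called lower numbered 5 to 18 over the left-out mice, 6 at an adjusted p under 0.01, and 5 where a log2 fold change of 0.5 or more in size was also asked, at which 1 was called higher. Over all genes, 1965 were called, but 1053, 1128 and 1128 without GalNAc-siRnf10 mouse 1, 2 and 3. Without GalNAc-siNC mouse 1, 2 and 3 they numbered 2864, 1633 and 1900. With the replicate block, 4 of the 10 genes were called lower and 1 higher, and 13 pathway genes were lower and 2 higher. Same-numbered mice did not deviate together (r between -0.034 and 0.027 across genes), so they share only a number. Tlr4, Cd14, Irak3 and Tnfaip3, with under 100 normalized counts in every mouse, limit what this depth can show.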
